A study of Homo sapiens with 8 samples.

Results

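Transcripts of 34 genes of mitosis were compared between cells with an empty guide vector and cells with a guide against SETD1A. The genes were taken by name from a table of 19035 gene symbols, and all 34 were found there with a mean of at least 1 TPM (transcripts relative to the library total, a scale that corrects for gene length) over the 6 RNA libraries, so that none was lost to the filter that left 11885 genes for testing. Kinesin motors were left out of the set by name, but CENPE, which is kept as a centromere protein, is itself a motor of that family. The cells were KPL-1, an established line from a human breast carcinoma, carrying a doxycycline-inducible Cas9 (iCas9). The 3 sgEmpty libraries (genotype WT) and the 3 sgSETD1A libraries (genotype SETD1A knockout) all came from day 7 of doxycycline, so the inducible Cas9 and the drug are shared by both groups. There was 1 line and the labels name 1 SETD1A guide condition. Whether the knockout cells were a pool or a clone, and whether replicates were separate cultures, is not stated, so p-values here measure no more than library-to-library spread, possibly technical. The other 2 of the 8 samples, a pool of tiling guides, hold no guide named for any of the 34 genes and were not used.

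Cells enter mitosis when CDK1, bound to a B-type cyclin, is switched on by the phosphatase CDC25C. Polo-like and Aurora kinases then build the spindle, condensins and topoisomerase fold the chromosomes, and the checkpoint proteins at unattached kinetochores hold back the anaphase-promoting complex. Once that complex, with CDC20 and the ubiquitin-conjugating enzyme UBE2C, marks cyclin B and securin for destruction, chromosomes part and the cell divides by cytokinesis. Most of these genes are transcribed late in the cell cycle by FOXM1, by the B-MYB protein encoded by MYBL2 and by the MuvB complex. These act through a promoter element called the cell cycle genes homology region (CHR). Many of the promoters also hold CCAAT boxes.

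Both elements could be read in the RefSeq promoter table (GRCh38.p14), which gives windows from 250 bases before to 50 after a transcription start. It held 34 windows for 27 of the 34 genes. AURKA, BIRC5, BUB3, FOXM1, TPX2, TTK and UBE2C are without a sequence here. On either strand, the CHR letters TTTGAA or TTCGAA were found for 21 of the 27 genes (77.8%), against 14.9% of the 8708 tested genes whose symbols are in the table. The CCAAT letters were found for 21 of the 27 (77.8%), against 43.6%, and both for 16 of the 27 (59.3%), against 6.35%. Of 116 other mitosis genes with windows (from the wider list below), 47.4% had a CHR match, 59.5% a CCAAT match and 27.6% both. Over all 35116 windows of this length, 16.4% hold a CHR match, 34.6% a CCAAT match and 6.38% both. The following stretches of 150 bases end at the base before the transcription start and are written along the gene. The set holds the matched genes with the largest called changes, 3 that rose (NUSAP1, CDK1 and TOP2A) and the 1 that fell (HMMR). CCNB2 and PLK1, which were not called, were added after their values were seen. Capitals mark the CHR letters and the CCAAT letters, read on either strand (so a CCAAT box on the other strand appears as ATTGG). For CDK1, which has more than 1 start in the table, the upstream one is used.
NUSAP1, chr15:41332731-41332880, plus strand, higher: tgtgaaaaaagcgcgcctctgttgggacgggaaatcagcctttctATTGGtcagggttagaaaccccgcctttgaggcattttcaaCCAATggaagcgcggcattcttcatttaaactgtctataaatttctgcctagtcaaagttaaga
CDK1, chr10:60778181-60778330, plus strand, higher: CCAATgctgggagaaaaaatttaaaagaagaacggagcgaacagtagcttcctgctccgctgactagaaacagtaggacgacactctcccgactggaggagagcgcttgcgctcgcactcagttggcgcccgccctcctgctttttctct
TOP2A, chr17:40417897-40418046, minus strand, higher: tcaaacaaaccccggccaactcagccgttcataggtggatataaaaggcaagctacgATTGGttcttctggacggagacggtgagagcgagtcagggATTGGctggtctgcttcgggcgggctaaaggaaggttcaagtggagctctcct
HMMR, chr5:163460482-163460631, plus strand, lower: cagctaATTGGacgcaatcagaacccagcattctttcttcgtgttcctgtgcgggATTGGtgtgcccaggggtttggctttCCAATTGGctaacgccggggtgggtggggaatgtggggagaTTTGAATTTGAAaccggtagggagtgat
CCNB2, chr15:59104996-59105145, plus strand, not called: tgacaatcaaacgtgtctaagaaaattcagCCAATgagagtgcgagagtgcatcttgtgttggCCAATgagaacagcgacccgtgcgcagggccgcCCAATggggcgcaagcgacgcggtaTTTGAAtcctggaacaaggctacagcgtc
PLK1, chr16:23678739-23678888, plus strand, not called: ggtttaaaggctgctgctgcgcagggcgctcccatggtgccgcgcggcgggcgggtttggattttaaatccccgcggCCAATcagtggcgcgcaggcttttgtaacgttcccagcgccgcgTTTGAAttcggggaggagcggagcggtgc
In NUSAP1, CDK1 and TOP2A no CHR match of the window lies wholly inside the stretch shown (1 of those of TOP2A runs across its upstream edge), so their capitals are CCAAT letters alone. The later CDK1 start, not shown, has CHR matches at positions -69 and -13 from that start. Of the other matched genes that rose, CENPA, PRC1 and NCAPG have a CHR match at -18, -20 and -35, and CCNB1 and NCAPH have none. The stretch of HMMR carries the CHR letters in tandem, and its CCAAT letters on the opposite strands overlap each other in CCAATTGG. CCNB2 carries 3 CCAAT boxes upstream of 1 CHR match, and PLK1 has 1 of each. A CHR match was found for 6 of the 8 matched genes that rose and for 14 of the 18 that were not called. These matches are letters in a window and not measured binding sites.

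The transcript targeted by the guide was lower in each sgSETD1A library. SETD1A stood at 17.5, 17.5 and 18.1 TPM in sgEmpty replicates 1 to 3 and at 9.36, 11.3 and 10.7 TPM in sgSETD1A replicates 1 to 3 (change of -0.71 log2, limma adjusted p = 9.13e-05). Markers of breast epithelium were abundant: the 7 chosen (EPCAM, KRT8, KRT18, KRT19, CDH1, ESR1 and GATA3) summed to between 14157 and 15231 TPM in sgEmpty and between 16115 and 16630.5 TPM in sgSETD1A, a shift whose part in the results was not tested. The 5 immune markers summed to at most 1.79 TPM and the 8 fibroblast and endothelial markers to at most 4.26 TPM, mostly from CD68 and COL1A1. DCN, a defining fibroblast marker, was listed at 0 in all 6 libraries. The depth of the libraries is unknown, as it cannot be read from TPM. sgSETD1A replicate 1 stood apart from the other sgSETD1A libraries: its Pearson correlations with them over tested genes were 0.9956 and 0.9954, against 0.9977 between the other pair.

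Of the 34 genes, 12 rose in sgSETD1A, 1 fell and 21 were not called (limma on log2(TPM + 1), adjusted p under 0.05 over all 11885 genes). The 12 rises are 35.3% of the 34, beside a background of 28.0% of all tested genes called higher. The single fall is 2.94%, beside 13.5% called lower. Each of the changes was small: the largest rise was that of UBE2C (0.41 log2, or 33.1% in mean TPM) and the fall was that of HMMR (-0.35 log2). The median change over the 34 was 0.12 log2, with estimates above 0 for 31 of them, beside a median of 0.073 log2 and 64.9% above 0 over all tested genes. The summed level of the 34 genes was 1456, 1450 and 1458 TPM in sgEmpty and 1645, 1579 and 1583 TPM in sgSETD1A, without overlap. The median deviation over all tested genes from the sgEmpty mean was 0.063, 0.077 and 0.076 log2 in sgSETD1A replicates 1 to 3. The part of this shared upward shift in the higher sums was not tested. In RNA from a culture, a larger share of cells near mitosis and more RNA per such cell cannot be told apart.

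The balance depends on how libraries are scaled. Median-ratio rescaling, which scales the libraries so that the typical gene is level between them, moved the median change of the 34 genes to 0.045 log2, the number that rose to 7 (20.6%, beside a background of 15.5%) and left 1 fall (2.94%, beside 19.2%). After quantile normalization 9 rose (26.5%, beside 18.0%) and 1 fell (beside 17.3%). CDK1, AURKA, FOXM1, TPX2, NUSAP1, CENPA and UBE2C rose, and HMMR fell, under the deposited scale and all 14 alternative settings.

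**Figure D1:**
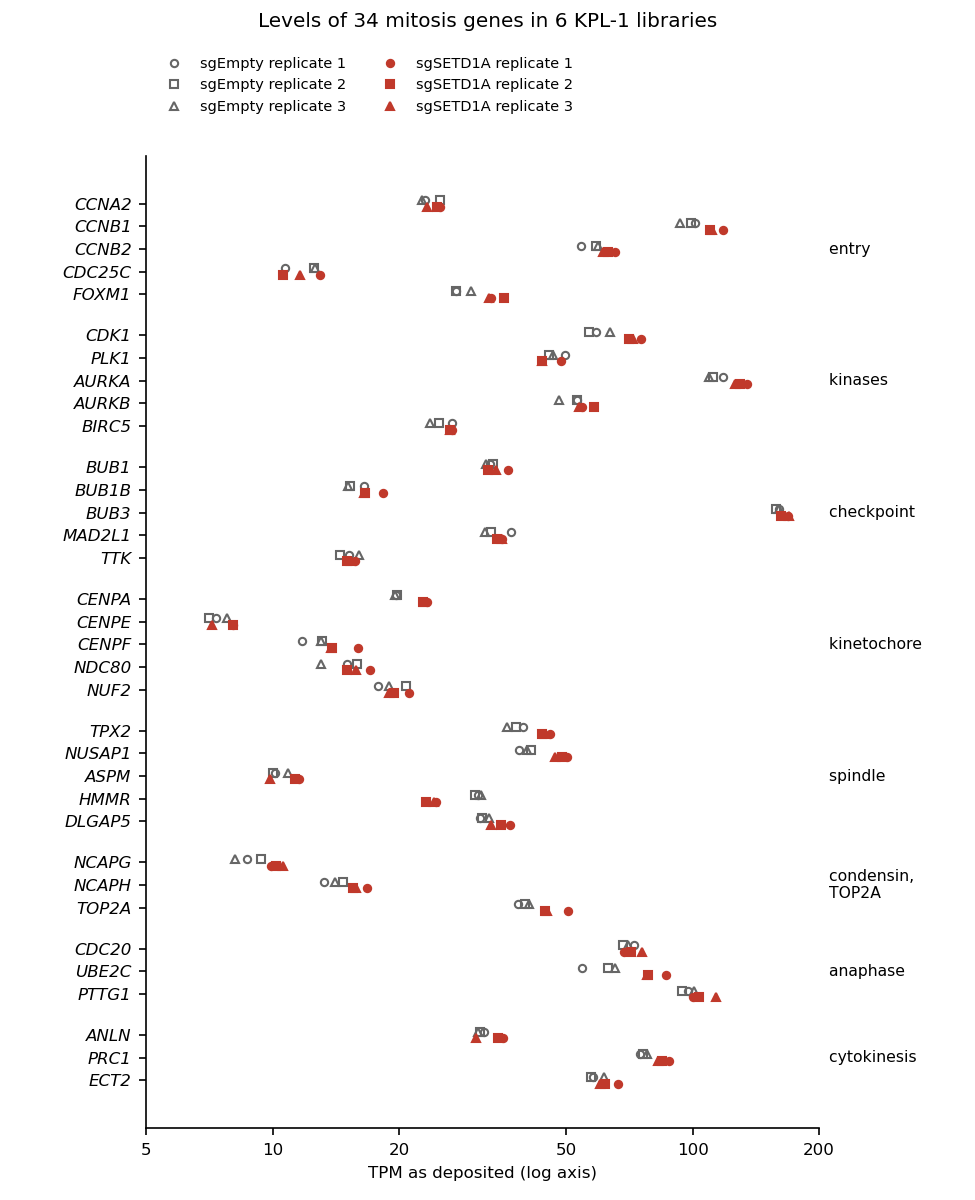
TPM as deposited (log axis) of the 34 genes, grouped by role, in 3 sgEmpty libraries (open grey symbols) and 3 sgSETD1A libraries (filled red symbols); each symbol is 1 library. Levels run from CENPE near 7 TPM to BUB3 near 160 TPM, and the groups separate upward for 18 genes and downward for HMMR.

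Levels in the control cells spanned a wide range, as the plot of TPM by library shows. BUB3, a checkpoint gene, had the most abundant transcript at 159.8 ± 1.56 TPM (SD, n = 3), followed by AURKA at 113.0 ± 4.44 and CCNB1 at 97.9 ± 4.18. CENPE was the lowest at 7.39 ± 0.37 TPM, with NCAPG at 8.74 ± 0.63 and ASPM at 10.3 ± 0.47. The SD over sgEmpty libraries was between 0.647% and 9.79% of the mean for each of the 34. Values of the 2 groups did not overlap for 18 genes that were higher in sgSETD1A and for HMMR, which was lower (52.9% and 2.94% of the 34, beside 36.4% and 17.3% of all tested genes).

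Among regulators of mitotic entry, CCNB1 and FOXM1 rose while CCNA2, CCNB2 and CDC25C were not called. CCNB1, the main partner of CDK1 at mitotic entry, was measured at 101.3, 99.0 and 93.2 TPM in sgEmpty and at 118.0, 110.1 and 111.4 TPM in sgSETD1A (0.21 log2, SE 0.044, limma adjusted p = 0.0054). FOXM1, the transcription factor of late cell cycle genes, was measured at 27.4, 27.3 and 29.7 TPM in sgEmpty and at 33.1, 35.6 and 32.7 TPM in sgSETD1A (0.26 log2, SE 0.055, limma adjusted p = 0.00531). For both, each sgSETD1A library lay above each sgEmpty library. CCNB1 was not called after median-ratio rescaling (0.13 log2, limma adjusted p = 0.0507). CCNB2, the other B-type cyclin, also had groups that did not overlap (sgEmpty 57.5 ± 2.92, sgSETD1A 63.2 ± 2.16, SD of TPM over 3 libraries each) and lay just outside the threshold at a limma adjusted p of 0.0502. CCNA2, the cyclin of S phase and early mitosis, differed by 0.04 log2 with a 95% interval of -0.09 to 0.17, and CDC25C by -0.02 log2 with an interval of -0.22 to 0.17.

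The kinases did not move as a block. CDK1, the kinase that drives entry, stood at 59.0, 56.8 and 63.7 TPM in sgEmpty and at 75.3, 70.4 and 72.2 TPM in sgSETD1A (0.28 log2, SE 0.051, limma adjusted p = 0.00246). AURKA, the Aurora kinase of centrosomes and spindle poles, stood at 117.9, 111.7 and 109.4 TPM in sgEmpty and at 134.9, 129.6 and 126.2 TPM in sgSETD1A (0.20 log2, SE 0.042, limma adjusted p = 0.00449). The groups of both genes were separate. PLK1, the polo-like kinase of centrosome maturation and kinetochores, had overlapping groups, at 49.6, 45.4 and 46.5 against 48.7, 43.9 and 43.7 TPM, and its estimate of -0.05 log2 (95% interval -0.18 to 0.07) stayed below 0 in all 14 alternative settings. AURKB, the Aurora kinase of centromeres and the midzone, differed by 0.11 log2 (interval -0.01 to 0.23), and its partner BIRC5 (survivin) by 0.08 log2 (interval -0.04 to 0.20).

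None of the 5 spindle checkpoint genes was called, with the deposited scale or under any of the 14 alternatives. These genes encode the proteins that delay anaphase until every kinetochore is attached: BUB1 and BUB1B (BubR1), their partner BUB3, MAD2L1 (MAD2) and the kinase TTK (MPS1). Their median change was 0.060 log2. BUB1B had the largest estimate, from 15.6 ± 0.73 to 17.1 ± 1.01 TPM (SD, n = 3; 0.12 log2, 95% interval -0.02 to 0.26). TTK had the smallest, from 15.2 ± 0.78 to 15.4 ± 0.34 TPM (SD, n = 3; 0.01 log2, interval -0.12 to 0.14). BUB3 was measured precisely, at 160.8, 158.0 and 160.7 against 168.8, 162.7 and 169.9 TPM, and its interval of -0.01 to 0.14 log2 holds only small differences. The estimates of BUB1, BUB3, MAD2L1 and TTK changed sign after median-ratio rescaling. Of 7 other checkpoint genes tested, 3 fell and 1 rose (42.9% and 14.3%, beside 13.5% and 28.0% of all tested genes). TRIP13 (-0.26 log2), KNTC1 (-0.20 log2, limma adjusted p = 0.0496) and ZWILCH (-0.15 log2) fell, also after median-ratio rescaling and quantile normalization. MAD1L1 rose (0.23 log2) but was not called after either.

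Of the 5 centromere genes among the 34, CENPA was the one called. CENPA is the histone H3 variant that marks the centromere, and of the 34 genes it varied least among the sgEmpty libraries: 19.7, 19.7 and 19.5 TPM in sgEmpty and 23.3, 22.8 and 23.0 TPM in sgSETD1A (0.22 log2, SE 0.047, limma adjusted p = 0.00571). The gap between groups was many times the spread within either. CENPF, an outer kinetochore protein, went from 12.6 ± 0.75 to 14.5 ± 1.23 TPM (SD, n = 3) without overlap but was not called (limma adjusted p = 0.066). NDC80 and NUF2, which form the microtubule-binding arm of the NDC80 complex, differed by 0.12 log2 (95% interval -0.06 to 0.29) and 0.04 log2 (-0.11 to 0.20), and the motor CENPE by 0.06 log2 (-0.10 to 0.23).

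**Figure D2:**
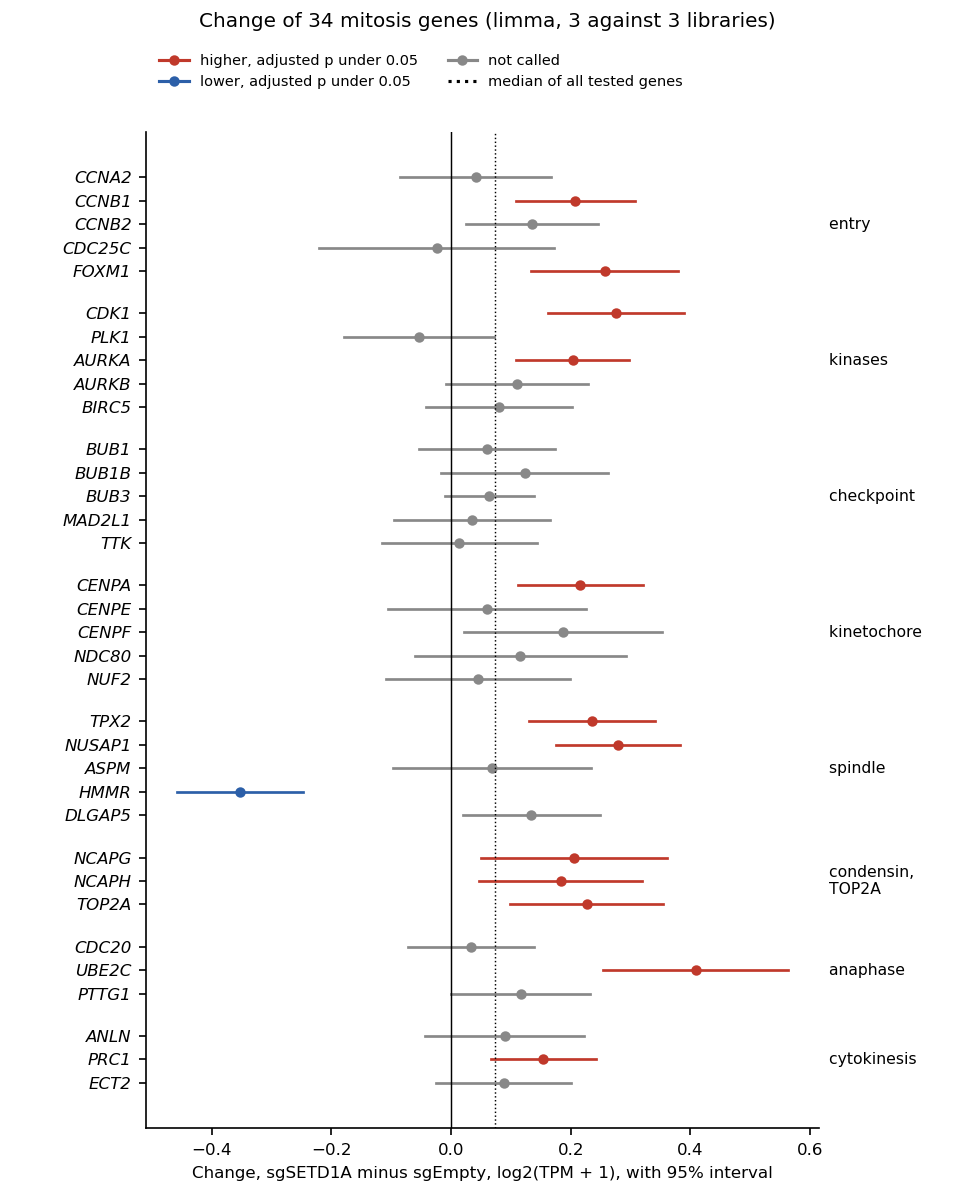
Change of each of the 34 genes, sgSETD1A minus sgEmpty on the log2(TPM + 1) scale (x axis), with its 95% interval from limma; the dotted line is the median of all 11885 tested genes, 0.073. Red marks the 12 rises, blue the fall of HMMR and grey the 21 genes not called, among them all 5 checkpoint genes.

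Transcripts of spindle assembly genes moved in opposite directions. NUSAP1, which bundles microtubules near chromosomes, stood at 38.5, 41.1 and 40.3 TPM in sgEmpty and at 50.2, 48.9 and 47.0 TPM in sgSETD1A (0.28 log2, SE 0.046, limma adjusted p = 0.00147). TPX2, the activator of AURKA on the spindle, stood at 39.4, 37.9 and 36.2 TPM in sgEmpty and at 45.8, 43.7 and 44.5 TPM in sgSETD1A (0.23 log2, SE 0.047, limma adjusted p = 0.00383). TPX2 and its kinase AURKA thus both rose, each with separate groups. HMMR, a hyaluronan receptor that is also a spindle pole protein binding TPX2, went the other way, from 30.8, 30.3 and 31.3 TPM to 24.4, 23.1 and 24.2 TPM (95% interval -0.46 to -0.25 log2, limma adjusted p = 0.000445). The lowest sgEmpty value of HMMR lay above its highest sgSETD1A value, and its estimate ran from -0.42 to -0.31 log2 over the alternatives. DLGAP5 (HURP), which stabilises kinetochore fibres, had separate groups but was not called (sgEmpty 31.8 ± 0.77, sgSETD1A 35.0 ± 1.81, SD of TPM over 3 libraries each; adjusted p of 0.0602 by limma), and ASPM, a protein of microtubule minus ends, differed by 0.07 log2 (95% interval -0.10 to 0.23). The span of HMMR in RefSeq shares bases with the antisense gene HMMR-AS1. The library kit keeps strand, but the sources used here do not state whether the counting used it.

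The genes of chromosome folding all rose with the deposited scale, but with little margin. TOP2A, the topoisomerase that untangles sister chromatids, stood at 38.4, 39.9 and 40.7 TPM in sgEmpty and at 50.6, 44.4 and 44.9 TPM in sgSETD1A (0.23 log2, SE 0.057, limma adjusted p = 0.0115). NCAPG stood at 8.67, 9.40 and 8.14 TPM and then at 9.92, 10.2 and 10.6 TPM (0.21 log2, SE 0.069, limma adjusted p = 0.0384). NCAPH stood at 13.3, 14.7 and 14.1 TPM and then at 16.8, 15.6 and 15.8 TPM (0.18 log2, SE 0.060, limma adjusted p = 0.0361). NCAPG and NCAPH are subunits of condensin I, and TOP2A, NCAPG and NCAPH each had groups that did not overlap. The call of NCAPG was lost in 8 of the 14 alternatives and that of NCAPH in 9, including each leave-one-out fit except that without sgEmpty replicate 2 and, for NCAPG, that without sgSETD1A replicate 1. None of TOP2A, NCAPG and NCAPH was called after median-ratio rescaling (TOP2A 0.15 log2, limma adjusted p = 0.066).

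Of the anaphase genes, UBE2C rose most of the 34 while CDC20 and PTTG1 were not called. UBE2C stood at 54.5, 62.8 and 65.2 TPM in sgEmpty and at 86.5, 78.3 and 78.1 TPM in sgSETD1A (SE 0.069, 95% interval 0.25 to 0.56 log2, limma adjusted p = 0.0016). Its sgEmpty values were the more spread of the 2 groups, with replicate 1 low, yet the groups did not overlap. CDC20, the activator that the checkpoint restrains, differed by 0.03 log2 (95% interval -0.07 to 0.14; 70.3 ± 2.09 and 72.0 ± 3.62 TPM, SD, n = 3). PTTG1 (securin), the inhibitor of separase, had overlapping groups at 97.8, 94.1 and 100.7 against 100.2, 103.7 and 114.0 TPM (0.12 log2, limma adjusted p = 0.0969). RefSeq lists pseudogenes named after UBE2C, CDC20 and PTTG1, and after 11 of the 34 genes in all, and reads that such copies share make the values of these genes uncertain.

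In cytokinesis, PRC1 was the gene called. PRC1, which crosslinks the microtubules of the spindle midzone, stood at 74.8, 76.1 and 77.8 TPM in sgEmpty and at 87.7, 84.4 and 82.9 TPM in sgSETD1A (0.15 log2, SE 0.039, limma adjusted p = 0.0117). Its groups were separate, but it was not called after median-ratio rescaling (0.08 log2, limma adjusted p = 0.148) or quantile normalization. RefSeq places PRC1-AS1 on a shared span, with the same limit on strand as for HMMR. The scaffold ANLN (anillin) differed by 0.09 log2 (95% interval -0.04 to 0.22) and ECT2, which acts at the cell equator in cytokinesis, by 0.09 log2 (-0.02 to 0.20), and the groups of both overlapped. The roles were not tested against each other; per role, 2 of 5 entry regulators, 2 of 5 kinase genes, 0 of 5 checkpoint genes, 1 of 5 centromere genes, 2 of 5 spindle genes, 3 of 3 folding genes, 1 of 3 anaphase genes and 1 of 3 cytokinesis genes rose, beside 28.0% of all tested genes. With so few genes per role, most of these counts are near that share. Of 9 other cytokinesis genes, from the wider list below, 6 rose (66.7%, beside 28.0%) and 0 fell. The 6 were RACGAP1, CEP55, RHOA, SEPTIN7, SEPTIN9 and CHMP4B. Of them, SEPTIN9 and CHMP4B alone stayed called after median-ratio rescaling, and also after quantile normalization.

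One library moved with the size of these differences. sgSETD1A replicate 1 held the highest value of its group for 27 of the 34 genes and the highest of all 6 libraries for 22. The same counts were not made over all tested genes. The median deviation of the 34 genes from the sgEmpty mean was 0.17 log2 in it, 0.12 in replicate 2 and 0.089 in replicate 3, while over all tested genes these were 0.063, 0.077 and 0.076. Without that library 12 genes still rose (beside a background of 29.3%), 11 of them shared with the full comparison, and the median change was 0.088 log2. The part of this library in the single calls was not tested beyond that refit.

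Among 132 other mitosis genes, listed by the same roles, 131 were tested, 43 rose and 15 fell (32.8% and 11.5%, beside 28.0% and 13.5% of all tested genes), with a median change of 0.094 log2. The split turned with scaling: 16 rose and 19 fell after median-ratio rescaling (beside 15.5% and 19.2%), and 22 rose and 16 fell after quantile normalization (beside 18.0% and 17.3%). Without sgEmpty replicate 2 the rises numbered 25, and without sgSETD1A replicate 3 the falls numbered 9. The largest rises were those of HJURP, the chaperone that loads CENPA (12.1 ± 0.66 to 18.3 ± 1.02 TPM; SD, n = 3; 0.56 log2, limma adjusted p = 0.00021), SPC25, a subunit of the NDC80 complex (0.48 log2, limma adjusted p = 0.00723), MYBL2, which encodes B-MYB (36.2 ± 1.43 to 50.6 ± 2.08 TPM; SD, n = 3; 0.47 log2), STMN1, a microtubule destabiliser (0.43 log2), and the spindle protein SPAG5 (0.40 log2). The largest falls were those of CDC26 (-0.73 log2, limma adjusted p = 3.13e-05) and ANAPC13 (-0.55 log2), small subunits of the anaphase-promoting complex, HAUS4, a subunit of augmin, which branches spindle microtubules (-0.62 log2), and the kinetochore genes CENPH (-0.34 log2) and NSL1 (-0.33 log2). NSL1 was near the filter at 1.84 ± 0.024 and 1.26 ± 0.057 TPM (SD, n = 3), and its call was lost in 4 leave-one-out fits. The 9 others named here were called in the same direction in all 14 alternatives.

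Within complexes the subunits moved unevenly, a grouping made after the values were seen. Of 14 subunits of the anaphase-promoting complex, 7 fell and 1 rose (beside 13.5% lower and 28.0% higher over all tested genes), and 7 were called lower after either rescaling too (beside 19.2% for median-ratio and 17.3% for quantile). CDC26 stood at 36.0, 41.2 and 40.2 TPM in sgEmpty and at 23.3, 22.4 and 23.7 TPM in sgSETD1A. ANAPC13 stood at 118.1, 119.7 and 123.1 TPM in sgEmpty and at 89.5, 78.2 and 78.8 TPM in sgSETD1A. The groups of both were far apart, so transcripts of these core subunits were lower while that of the conjugating enzyme UBE2C was higher. In condensin I, NCAPD2 fell from 53.9 ± 2.36 to 43.1 ± 1.20 TPM (SD, n = 3; -0.32 log2, limma adjusted p = 8.32e-04) while NCAPG, NCAPH and SMC4 rose. After median-ratio rescaling the fall of NCAPD2 was the call left in that complex. In the chromosomal passenger complex, CDCA8 (borealin) and the scaffold INCENP rose by 0.27 and 0.17 log2 beside AURKB and BIRC5, which were not called, and INCENP lost its call after either rescaling. In augmin 3 of 8 subunits rose and HAUS4 fell with the deposited scale, and 2 fell and none rose after either rescaling, counts near the shares over all tested genes given above for falls and, with the deposited scale, for rises.

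**Figure D3:**
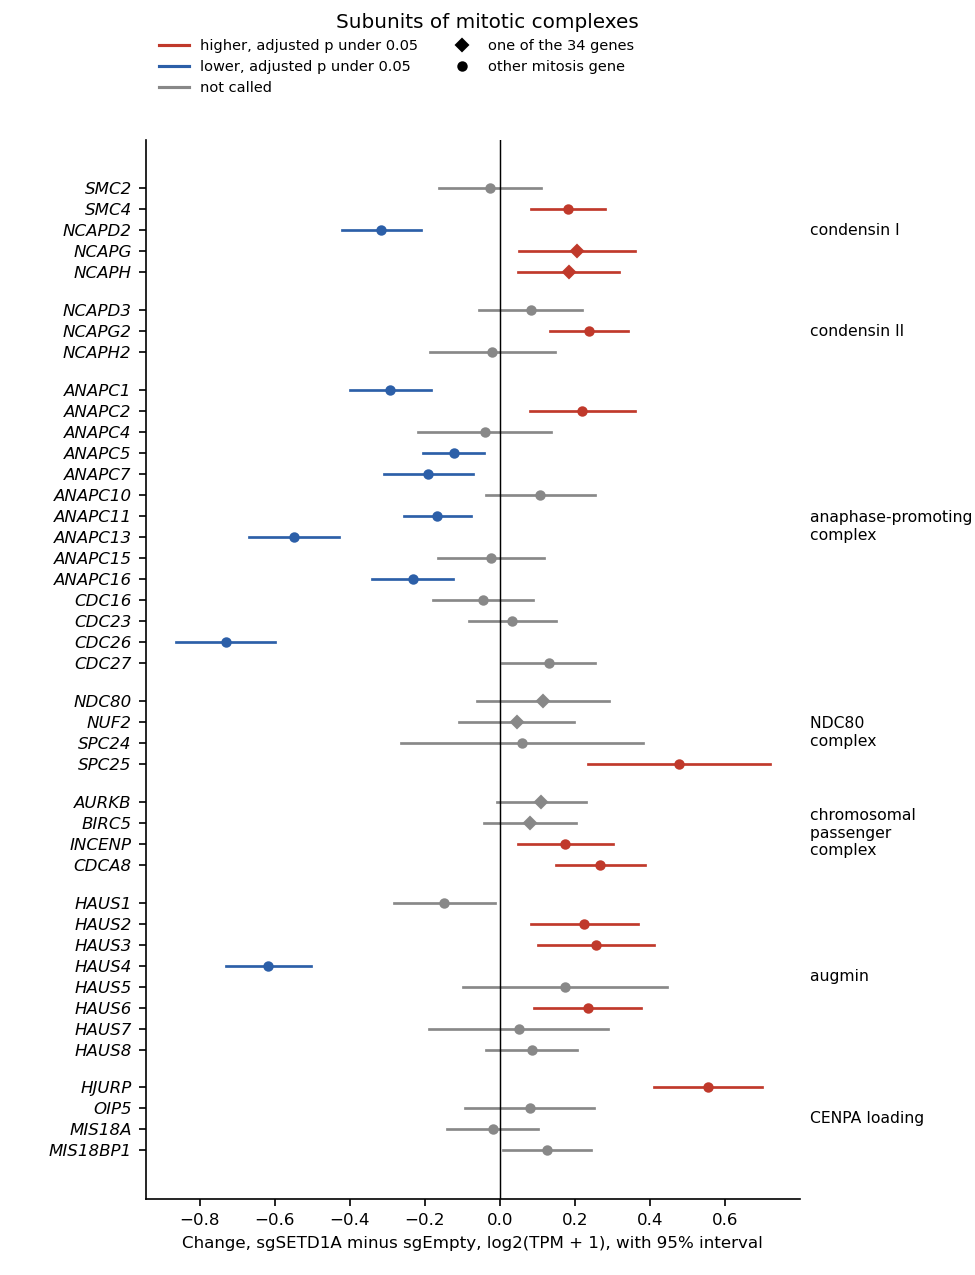
Change, sgSETD1A minus sgEmpty on the log2(TPM + 1) scale (x axis), with 95% interval, of subunits of 7 mitotic complexes or pathways; diamonds are genes of the 34, circles other mitosis genes, and SMC2 and SMC4 belong to both condensins. Of 14 subunits of the anaphase-promoting complex 7 lie below 0 in blue, led by CDC26 at -0.73.

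Of 20 listed genes of the preceding S phase, 11 rose and none fell, with a median of 0.15 log2 (55.0%, beside 28.0% higher and 13.5% lower over all tested genes). After median-ratio rescaling 7 rose and MCM3, a subunit of the replicative helicase, fell (median 0.078 log2, beside 15.5% higher and 19.2% lower over all tested genes), and after quantile normalization 9 rose and none fell (beside 18.0% and 17.3%). RRM2, a subunit of ribonucleotide reductase, rose by 0.47 log2 and the replication factor GINS2 by 0.33 log2. The median deviation of these genes was 0.16, 0.16 and 0.12 log2 in sgSETD1A replicates 1 to 3.

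The share of the 34 genes that rose was above that of all tested genes in each setting tried, by a varying margin. With the deposited scale the margin was small (35.3%, beside 28.0%), and it was not tested. All settings draw on the same 6 libraries, so they are not independent of one another. With pseudocounts of 0.1 and 5, 12 and 13 of the 34 rose, beside 27.9% and 28.0% of all tested genes (lower: 1 each, beside 13.4% and 13.6%). With no filter on low TPM 10 rose (29.4%, beside 18.8%) and 1 fell (beside 9.14%), and with a filter of 5 TPM 13 rose (beside 29.6%) and 1 fell (beside 14.5%). CCNB2 was the gene gained at the higher pseudocount and at the higher filter. Without the trend in limma 12 rose (beside 25.7%) and 1 fell (beside 12.5%), and with the replicate number as a block 10 rose (beside 26.1%) and 1 fell (beside 12.9%). Leaving out sgEmpty replicate 1, 2 or 3 gave 10, 12 and 10 rises, beside 23.6%, 19.8% and 22.1%, and 1 fall each, beside 11.6%, 11.0% and 10.8%. The genes lost with fewer libraries were NCAPG and NCAPH. Leaving out sgSETD1A replicate 2 or 3 gave 10 and 11 rises, beside 21.6% and 20.6%, and 1 fall each, beside 11.7% and 11.3%. Without sgSETD1A replicate 1 the 1 fall stood beside 13.6%.

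**Figure D4:**
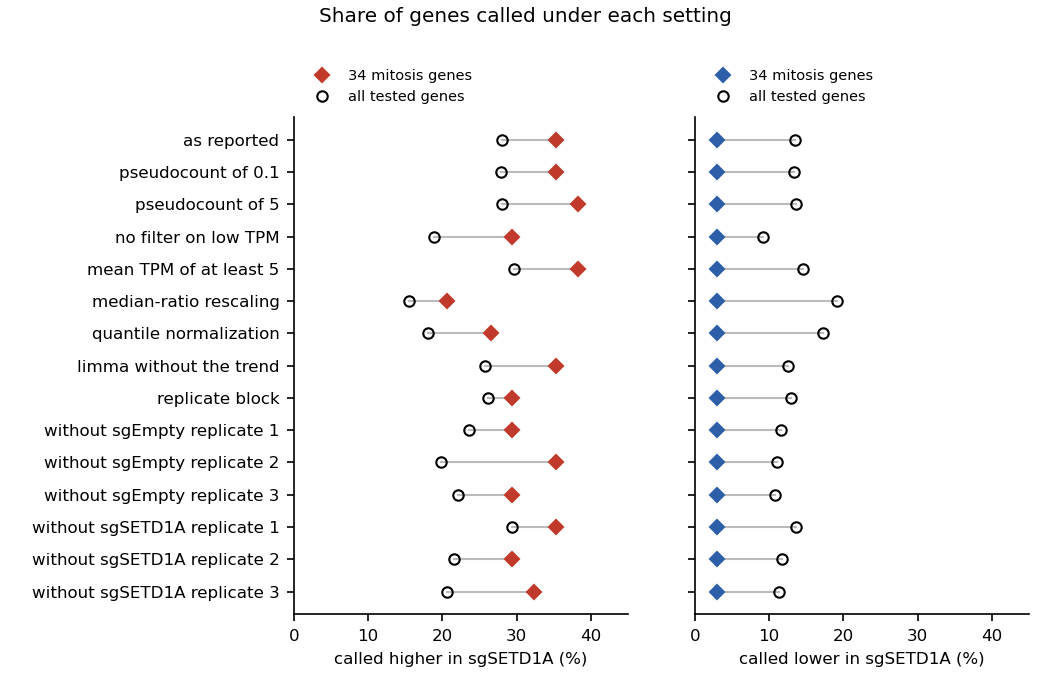
Share of genes called higher (left) and lower (right) in sgSETD1A under the reported setting and 14 alternatives; diamonds are the 34 mitosis genes and open circles all tested genes. The share of the 34 called higher runs from 20.6% to 38.2%, above the circle in each setting, and 1 of the 34 is lower in each. All settings draw on the same 6 libraries.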

How the data were processed

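The authors deposited a table of TPM values for 19035 genes and a table of raw guide counts per guide for 5995 guides. The submitters' processing notes name the hg19 build and, as tools, RSEM 1.3.1, STAR 2.6.0c and bcl2fastq 2.20.0, with no roles or order. A row with no gene name, holding the column total of 1000000, was left out. The deposited guide counts were read for guide names alone, and 0 of them name one of the 34 genes. TPM are not counts and keep no depth, so log2(TPM + 1) was tested for genes with a mean of at least 1 TPM in R 4.3.3, using limma 3.58.1 with its intensity trend. Adjusted p-values are Benjamini-Hochberg values over all tested genes. Fold changes on this scale understate those of low genes. The fit was tested on simulated data. Older symbols were matched through RefSeq synonyms (13 of the 132 other mitosis genes). The named genes were all 34 and, of the other mitosis genes, the 5 largest called changes in each direction. Further checkpoint genes, cytokinesis genes and complex subunits were named after the values were seen. Members and lists were chosen with earlier results of these data known. Alternatives were 2 pseudocounts, 2 filters, 2 rescalings, no trend, a replicate block and each library left out. A motif search of protein sequences was not done, as no protein table was used here.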

Additional observations from a re-analysis of the deposited data

How the results depend on the processing

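Of the changes of the 34 genes refitted under 14 alternatives, 429 kept their direction and side of the threshold, 21 lost a call, 4 gained one and 22 changed sign, none of them a called gene. The number of the 34 that rose was 7 after median-ratio rescaling and ran from 10 to 12 over the leave-one-out fits, with 1 fall in each; the median was 0.045 log2 after median-ratio rescaling and ran from 0.088 to 0.14 over those fits. Over all genes the rises numbered 1837 with median-ratio rescaling and 2142 with quantile values (2352 to 3479 in the leave-one-out fits, with 1289 to 1615 falls), and of other mitosis genes 16 and 22 (25 to 39, with 9 to 15 falls; 25 rises without sgEmpty replicate 2 and 9 falls without sgSETD1A replicate 3). The cause of these shifts was not tested.

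Sign changes of uncalled genes after median-ratio rescaling were BUB1 -0.012, BUB3 -0.0097, CCNA2 -0.030, CDC20 -0.040, CENPE -0.0048, MAD2L1 -0.037, NUF2 -0.026 and TTK -0.056 log2. After quantile normalization they were CCNA2 -0.0037, CDC20 -0.0028, CENPE -0.0031, MAD2L1 -0.00016, NUF2 -0.017 and TTK -0.045 log2. Leave-one-out fits ran from -0.0045 to 0.066 log2 for CDC20, -0.095 to 0.041 for CDC25C, -0.0068 to 0.095 for MAD2L1, -0.0040 to 0.10 for NUF2 and -0.021 to 0.048 for TTK.

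With the replicate number as a block, 10 of the 34 rose, NCAPG and NCAPH being lost, and 1 fell. Deviations of same-numbered libraries had correlations over genes of 0.0845, -0.104 and 0.169, beside -0.21 to 0.139 for libraries of unlike number. With 3 libraries per group these values cannot settle whether the numbers pair the samples.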
